A study of Mus musculus with 8 samples.

Results

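The antioxidant enzymes described here are 10 genes, *Nqo1*, *Gclc*, *Gclm*, *Txnrd1*, *Srxn1*, *Sod1*, *Sod2*, *Cat*, *Gpx1* and *Gpx3*, among 37074 different gene names on the array. They were found by taking every spot that is not a control and carries one of these names, which gave 12 probes, 1 for each of 8 genes and 2 each for *Sod1* and *Txnrd1*. Expression was measured in C57BL/6J mice that were 12 weeks old, 18 h after an intravenous injection. Saline (100 μL) was given to the 4 Co mice, and sonicated *P. gingivalis* in the same volume to the 4 Pg mice. The mice are male by the paper's methods. The dose is printed differently in the labels and the methods and is not given here. The RNA is labelled as brown adipose tissue (BAT), and each mouse had 1 Agilent one-color array. Values below are log2 of the quantile-normalized signal of a probe, and differences are Pg minus Co on that scale.

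Antioxidant enzymes remove reactive oxygen species in steps. Superoxide dismutases turn superoxide into hydrogen peroxide, and catalase, glutathione peroxidases and peroxiredoxins then break the peroxide down. Glutathione, thioredoxin and the NADPH that recharges them supply the reducing power, and many of these genes are targets of the transcription factor NRF2, which binds antioxidant response elements in their promoters. Brown adipocytes are rich in mitochondria, a main source of superoxide.

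The sequences of the regulatory context are shown first, because NRF2 binding is the best known link among these genes. The 250 bases before each RefSeq start site (GRCm38.p6) were searched on both strands for TGACNNNGC and TGAGNNNGC, spellings of the antioxidant response element core that can share letters with the AP-1 site TGAGTCA. The latter spelling was added after a search with the former. A promoter was found for 9 of the 10 genes, and *Gclc* had no entry. At least 1 match was found in 4 of these 9 genes, *Gclm*, *Txnrd1*, *Srxn1* and *Sod1*, beside 25.65% of all 27025 genes with a promoter and 23.01% of all 32851 promoters. The matches are given with 20 bases on each side, on the plus strand, which is the strand of each of these genes, and capitals mark the letters that matched in either orientation.
Gclm, chr3:122245403-122245451: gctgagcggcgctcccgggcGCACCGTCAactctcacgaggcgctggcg
Txnrd1, chr10:82859094-82859142: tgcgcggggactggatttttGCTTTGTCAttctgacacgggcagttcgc
Srxn1, chr2:152105346-152105394: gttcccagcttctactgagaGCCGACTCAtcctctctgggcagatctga
Srxn1, chr2:152105459-152105507: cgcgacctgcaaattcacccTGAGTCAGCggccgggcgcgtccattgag
Sod1, chr16:90220686-90220734: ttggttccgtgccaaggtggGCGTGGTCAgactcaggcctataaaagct

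*Srxn1* was the member with a match at both 158 and 45 bases before its start. The *Txnrd1* match lay 92 bases before one of its start sites, the *Gclm* match at 134 and the *Sod1* match at 56. A match describes the letters of the window and does not show binding in this tissue.

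For the genes with 2 probes, the first 30 bases of each probe are shown, because the probes read different stretches of the transcript. The coordinates are those of these bases in mm9, the build of the array design, on the plus strand of the genome.
Sod1 probe for NM_011434, chr16:90226497-90226526: cagtaaacattccctgtgtggtctgagtct
Sod1 probe for BC057074, chr16:90224181-90224210: ccttcttaaaagccaaggtctttaaatgtg
Txnrd1 probe A_51_P320614, chr10:82360230-82360259: cctttcaagtctgccagtctctgagatcag
Txnrd1 probe A_55_P2740574, chr10:82338379-82338408: aatttgacaagaaagtgctggtcttggatt
The *Sod1* probes lie 2316 bases apart on the genome, and the *Txnrd1* probes 21851 bases apart.

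Probes well above background numbered 34760 to 35831 per array in Co and 31132 to 34063 in Pg mice, so the ranges do not overlap. The tissue label was set against marker lists. Of 10 brown adipocyte markers, *Ucp1* (the uncoupling protein of brown fat) and *Elovl3* (a fatty acid elongase of brown fat) did not stand well above background on a single array. Of the other 8, 7 stood above it on all 8 arrays, with Co means from 7.77 (*Zic1*) to 17.94 (*Cox8b*). Whether their signal came from brown fat or from muscle was not tested. All 10 skeletal muscle markers were well above background on all 8. The summed muscle signal was 21.46 to 21.53 in Co and 21.41 to 21.51 in Pg mice. Its brightest probes, *Tnni2* and *Tnnt3*, took only 18.81 or 18.84 on each array, since quantile normalization gives equal ranks equal values. Near-equal sums therefore do not show equal muscle RNA, and *Myh4* ranged from 11.38 to 17.07 over the arrays. The summed signal of the 8 brown adipocyte markers tested was 18.84 to 18.99 and 18.97 to 19.10. The enzymes described here are made by muscle as well as by fat cells, and in tissue RNA fewer cells of a type cannot be told apart from less RNA per cell. The part of muscle RNA in the values below was not tested.

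All 12 antioxidant enzyme probes were well above background on all 8 arrays, and none was saturated. None of the 12 passed a q under 0.1 in limma with Benjamini-Hochberg adjustment over 33819 probes, beside 7.82% of all probes tested, 1.82% higher and 6% lower in Pg mice. Without adjustment, 2 of 12 had a p under 0.05 (16.7%), *Gclc* and *Cat*, beside 22.8% of all probes. The groups did not overlap for 2 probes (16.7%), *Cat* and the *Sod1* probe for NM_011434, beside 15.8% of all probes. Higher in Pg mice were 6 of the 12, beside 42.3% of all probes, and 6 were lower. The median log2 fold change was -0.01, against -0.04 over all probes. The members' counts are therefore near those of the array at large, and none was a DEG (q under 0.1 and a fold change above 1.5), beside 1.61% of all probes.

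The differences were small, from -0.23 for *Gpx3* to 0.20 for *Gclc*, and the data bound them. The 95% interval of 11 of the 12 lay within 1.5-fold in either direction (0.585 on the log2 scale), beside 70.1% of all probes tested. *Srxn1* was the exception. A q above the threshold does not show that the groups were alike, and changes smaller than these intervals were not resolved by 4 arrays per group. The median SD within groups was 0.144 for the members and 0.155 over all probes. Over the probes well above background on all 8 arrays, as all members are, it was 0.136. The members were also brighter, with a median signal of 12.39 against 8.07 over all probes tested.

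**Figure D1:**
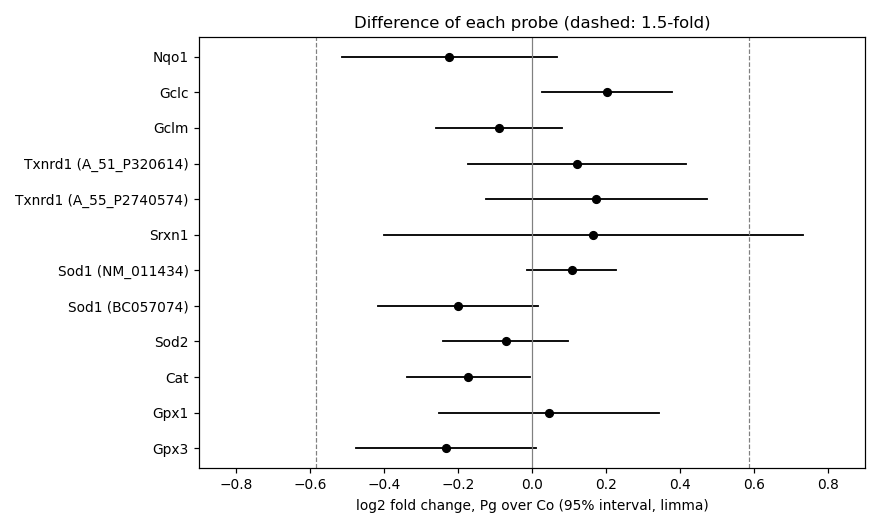
Log2 fold change, Pg over Co, of each of the 12 antioxidant enzyme probes (point) with its 95% interval from limma (line); dashed lines mark 1.5-fold. Of the 12 intervals, 11 lie between the dashed lines, and that of *Srxn1* reaches 0.73.

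Among the enzymes that make glutathione, the subunits of glutamate-cysteine ligase lay on opposite sides of 0. *Gclc* encodes the catalytic subunit, which carries out the rate-limiting step. It was 10.39, 10.51, 10.45 and 10.29 in the Co mice and 10.68, 10.55, 10.72 and 10.50 in the Pg mice. Of the Pg arrays, replicate 4 lay inside the Co range, and the other 3 Pg arrays were above every Co array. The log2 fold change was 0.20 ± 0.08 (SE, n = 4 per group; limma unadjusted p = 0.0296, q = 0.172), a fold change of 1.15 with a 95% interval of 1.02 to 1.30. This was the lowest q of the members. With limma's normexp background correction *Gclc* passed the threshold (log2 fold change 0.24, q = 0.0742), and over the other 18 settings its q was between 0.11 and 0.31.

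*Gclm* encodes the modifier subunit, which raises the activity of the catalytic one. Its level was 10.88, 10.69, 10.96 and 10.82 in the Co mice and 10.77, 10.80, 10.65 and 10.77 in the Pg mice. The groups overlapped, with a log2 fold change of -0.09 ± 0.07 (SE, n = 4 per group; limma q = 0.508) and an interval of -0.26 to 0.08. It was -0.05 without Co replicate 3 and -0.14 without Co replicate 2.

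*Nqo1* encodes a quinone reductase and is a widely used readout of NRF2. It was 10.17, 10.10, 10.15 and 10.23 in the Co mice and 10.10, 9.55, 10.12 and 9.98 in the Pg mice. Pg replicate 2 lay well below the other 7 arrays, and the SD was 0.055 in Co and 0.264 in Pg mice. The log2 fold change was -0.22 ± 0.13 (SE, n = 4 per group; limma q = 0.330), with an interval of -0.52 to 0.07. Without Pg replicate 2 it was -0.10.

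Thioredoxin reductase 1 and sulfiredoxin act on the thiol side. *Txnrd1* encodes the cytosolic enzyme that recharges thioredoxin with NADPH. Probe A_51_P320614 read 12.69, 12.70, 12.83 and 12.39 in the Co mice and 13.06, 12.70, 12.75 and 12.58 in the Pg mice. Probe A_55_P2740574 read 10.94, 10.73, 10.86 and 10.51 in the Co mice and 11.20, 10.79, 10.98 and 10.76 in the Pg mice. On both probes Co replicate 4 was the lowest of the 8 arrays and Pg replicate 1 the highest, and the groups overlapped. The log2 fold changes were 0.12 ± 0.13 (limma q = 0.607) and 0.17 ± 0.13 (limma q = 0.465; SE, n = 4 per group for both), so the probes differed in the same direction without passing the test. Without Co replicate 4 the differences were 0.04 and 0.09, and without Pg replicate 1 they were 0.03 and 0.08.

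*Srxn1* encodes sulfiredoxin, which repairs overoxidized peroxiredoxins. It was 12.35, 13.03, 12.74 and 12.01 in the Co mice and 13.11, 12.73, 12.63 and 12.33 in the Pg mice. Co replicate 4 and Pg replicate 1 were again the lowest and the highest array, and the arrays spanned 1.02 within Co and 0.783 within Pg. Its pooled SD of 0.39 was higher than that of 87.6% of the probes tested, the largest of the 12 member probes. The log2 fold change was 0.16 ± 0.24 (SE, n = 4 per group; limma q = 0.724), and the interval of -0.40 to 0.73 allows up to 1.66-fold. Without Co replicate 4 the difference was -0.01.

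**Figure D2:**
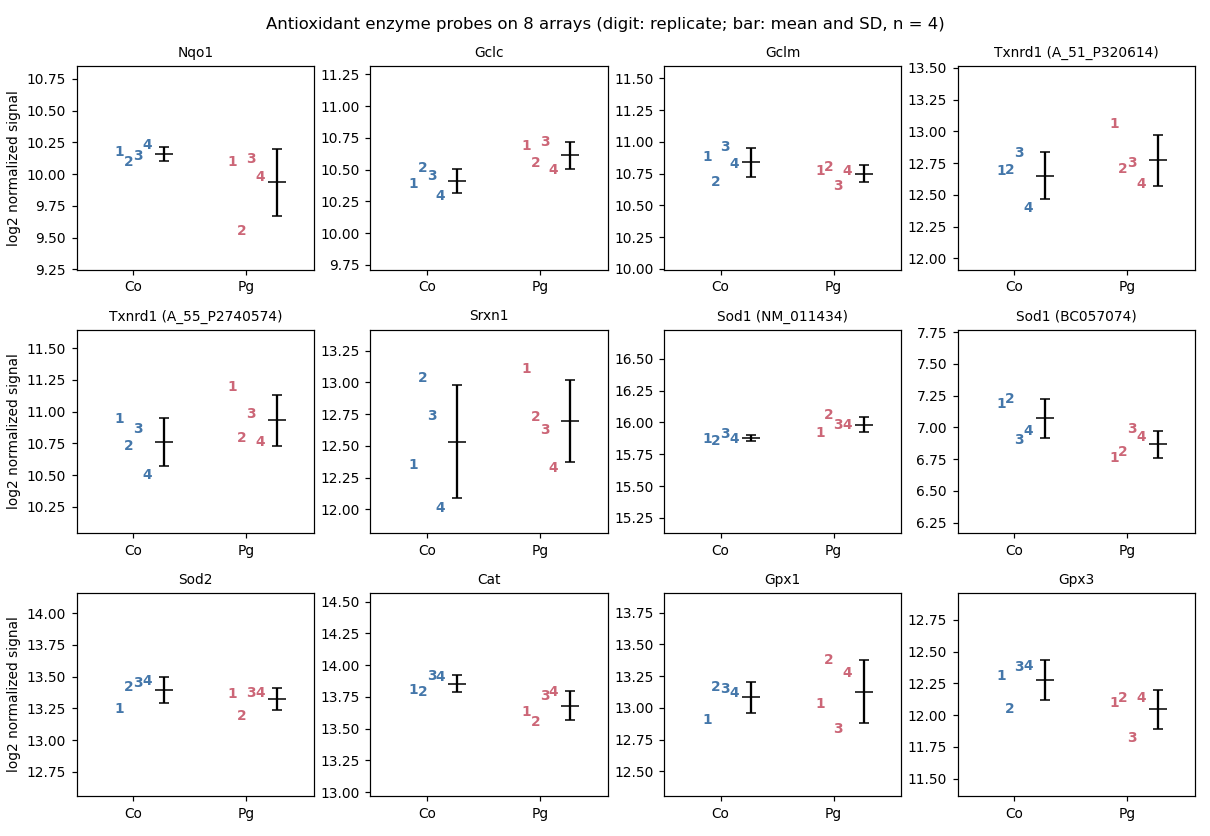
Log2 normalized signal of the 12 antioxidant enzyme probes in Co (blue) and Pg (red) mice; digits are the replicate numbers, and the black bars show the mean and SD (n = 4). Each panel spans the same 1.6 log2 units around its own centre. *Srxn1* shows the widest scatter in both groups, and *Cat* and *Sod1* (NM_011434) show groups that do not overlap.

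The superoxide dismutases gave no call. *Sod1* encodes the copper and zinc enzyme of the cytosol, and its probe for NM_011434 was steady among the arrays, with a pooled SD of 0.0438 that lay at the 2.49th percent of all probes tested. It read 15.87, 15.85, 15.91 and 15.87 in the Co mice and 15.92, 16.06, 15.98 and 15.98 in the Pg mice. Every Pg array was above every Co array, by a mean of 0.11 ± 0.05 (SE, n = 4 per group; limma q = 0.271), and the interval of -0.01 to 0.23 includes 0. The probe for BC057074 read 7.18, 7.22, 6.90 and 6.97 in the Co mice and 6.76, 6.80, 6.99 and 6.92 in the Pg mice. Here the groups overlapped and the difference was in the opposite direction, -0.20 ± 0.09 (SE, n = 4 per group; limma q = 0.249). Over 19 other settings the first probe differed by 0.02 to 0.13 and the second by -0.26 to -0.07. The probes of *Sod1* thus disagree, and the mean over both gave a log2 fold change of -0.05 (limma q = 0.686).

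*Sod2* encodes the manganese enzyme of mitochondria and is known as a target of NF-κB in inflammation. It was 13.25, 13.42, 13.45 and 13.47 in the Co mice and 13.36, 13.19, 13.37 and 13.37 in the Pg mice. The lowest array was Pg replicate 2, and the groups overlapped. Pg and Co differed by -0.07 ± 0.07 (SE, n = 4 per group; limma q = 0.591), with an interval of -0.24 to 0.10. The difference was -0.03 without Pg replicate 2 and -0.12 without Co replicate 1.

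Of the peroxide-removing enzymes, *Cat* encodes catalase of peroxisomes. It was 13.80, 13.79, 13.92 and 13.91 in the Co mice and 13.63, 13.55, 13.76 and 13.79 in the Pg mice. Every Pg array was below every Co array, the closest pair being Pg replicate 4 and Co replicate 2. The log2 fold change was -0.17 ± 0.07 (SE, n = 4 per group; limma unadjusted p = 0.0428, q = 0.203), a fold of 0.887. Over 19 other settings the value was between -0.21 and -0.13 and q between 0.18 and 0.45, so the direction held in each and no setting gave a call.

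*Gpx1* encodes the glutathione peroxidase of the cytosol and mitochondria, a selenoprotein. It was 12.90, 13.17, 13.15 and 13.12 in the Co mice and 13.03, 13.38, 12.83 and 13.27 in the Pg mice. Pg arrays held both the lowest and the highest value. The groups differed by 0.05 ± 0.13 (SE, n = 4 per group; limma q = 0.861), and it turned negative when any of 3 single arrays was left out.

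*Gpx3* encodes the secreted glutathione peroxidase of plasma, which fat and kidney make. It was 12.30, 12.05, 12.38 and 12.38 in the Co mice and 12.10, 12.13, 11.82 and 12.13 in the Pg mice. Co replicate 2 lay among the Pg arrays, and the other 3 Co arrays were above all Pg arrays. The difference was -0.23 ± 0.11 (SE, n = 4 per group; limma q = 0.237), the most negative of the members, with an interval of -0.48 to 0.01.

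Red blood cells carry much catalase, *Gpx1* and *Sod1* product. All 8 red blood cell markers tested were lower in Pg mice with none called (median -0.55), from -0.82 for *Ahsp* (a hemoglobin chaperone, limma q = 0.602) to -0.13 for *Hemgn* (an erythroid nuclear protein, limma q = 0.161). Of the Pg arrays, 2 had *Ahsp* well above background, and its difference was -1.52 without Pg replicate 4 and -0.15 without Pg replicate 3. The summed signal of the list was 18.88 to 19.56 in Co and 17.86 to 19.59 in Pg mice. *Hemgn* did not share this spread, at 14.35 to 14.40 on the Pg arrays, where *Hbb-bt*, a hemoglobin gene, ranged from 14.52 to 16.95. *Epb42* did not reach well above background anywhere, and *Hbb-bs* was not matched by name. Neutrophil markers were higher in all 5 of 10 that were tested, with none called (median 0.16). The median is the value of *Mmp8*, which was well above background on only 1 Pg array. *S100a8*, a calcium-binding protein of neutrophils, differed by 2.16 (limma q = 0.132) and *Camp*, an antimicrobial peptide, by 0.01 (limma q = 0.941), while *Mmp9*, *Ngp* and *Ltf* did not reach well above background anywhere. *S100a8* was 8.59, 8.32, 5.18 and 6.76 in the Pg mice, and replicate 3 lay inside the Co range of 4.56 to 5.33. Its difference was 2.84 without Pg replicate 3 (limma q = 0.0521) and 1.36 with normexp. The neutrophil sum was 9.42 to 9.64 in Co and 9.46 to 11.32 in Pg mice, and the macrophage sum 13.41 to 14.01 and 13.39 to 14.81. The part of these cells in the enzyme values was not tested.

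The rest of the pathway was read from lists with 1 probe a gene, the tested probe with the highest mean. Of 20 other glutathione enzymes, 19 were tested, and in Pg mice 7 of them were higher and 12 lower, none called, at a median of -0.07. The extremes were *Chac1*, which degrades glutathione (-0.68, limma q = 0.268), and *Gss*, glutathione synthetase (0.23, limma q = 0.177). The other *Gss* probe differed by -1.64 (limma q = 0.518) and read 14.37 on Co replicate 4 against 7.83 to 8.19 on the other 7 arrays.

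Of 20 other thioredoxin, peroxiredoxin and dismutase genes, 12 were higher and 8 lower, and 1 was called, with a median of 0.00. *Txnip*, which encodes the protein that binds and inhibits thioredoxin, was 16.58, 16.34, 16.29 and 16.39 in the Co mice and 15.94, 16.13, 16.12 and 15.91 in the Pg mice. It fell by 0.38 on the log2 scale (SE 0.09, n = 4 per group; limma q = 0.0704), and every Pg array was below every Co array. Its other probe fell by 0.66 (limma q = 0.0444). The highest of the list was *Sod3*, the extracellular dismutase, at 0.18 (limma q = 0.371), and at 0.09 without Co replicate 2.

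Of the 10 regulators of the NRF2 pathway, in Pg mice 9 were higher and 1 was lower, none of them called, at a median of 0.09. These counts rest on 1 probe a gene, and the other probes of *Sqstm1*, *Nfe2l1* and *Mafg* went the opposite way. The one lower was *Cul3*, the ubiquitin ligase scaffold that acts on NRF2 (-0.23, limma q = 0.134), and the highest was *Maff*, a small MAF partner (0.26, limma q = 0.572). *Maff* was at 0.05 without Pg replicate 1 and 0.13 without Co replicate 4. Of 20 other NRF2 target genes, 11 were higher and 9 lower (median 0.08), with 1 called higher and 3 called lower. Over all probes tested, 1.82% were called higher and 6% lower, and nothing particular to the list was tested.

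*Gsta3*, a glutathione S-transferase, was the DEG among the 5 genes called in these lists by the probe that stood for each gene. Of their other probes, those of *Txnip* and *Gsta3* also passed the DEG rule. That of *Idh1* did so too, but it entered the test only through the Co arrays, with no Pg array well above background. *Gsta3* was 7.36, 7.55, 7.26 and 7.39 in the Co mice and 6.07, 5.49, 6.44 and 6.03 in the Pg mice. The groups were well apart, and it fell by 1.38 on the log2 scale (SE 0.18, n = 4 per group; limma q = 0.0398), a fold of 0.384. Its other probe fell by 1.14 (limma q = 0.0429). Without Co replicate 3 the q was 0.107. The fall of the first probe was smaller with normexp (-0.83), with the median signal (-0.91) and in the deposited values (-1.04), each with a q under 0.1.

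*Idh1*, an NADPH-making isocitrate dehydrogenase of the cytosol, fell by 0.44 (SE 0.12, n = 4 per group; limma q = 0.0870), from 7.95 ± 0.15 to 7.51 ± 0.20 (SD). Its other probe was well above background on all Co arrays and on no Pg array. *Osgin1*, an oxidative stress-induced growth inhibitor, fell by 0.36 (SE 0.10, n = 4 per group; limma q = 0.0994), with overlapping groups. *Ephx1*, the microsomal epoxide hydrolase, was 13.64, 13.75, 13.91 and 13.77 in the Co mice and 14.09, 14.13, 13.99 and 14.08 in the Pg mice. It rose by 0.30 (SE 0.07, n = 4 per group; limma q = 0.0705), and the groups did not overlap. *Tkt*, transketolase of the pentose phosphate pathway, had the most positive difference of the list at 0.30 without passing the test (limma q = 0.111). Under 5 of 19 other settings it was called, at a lowest limma q of 0.0687. The other *Tkt* probe differed by -0.29 (limma q = 0.641). With any single Co array left out, or any Pg array but replicate 3, at most *Gsta3* of these 5 genes was called.

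**Figure D3:**
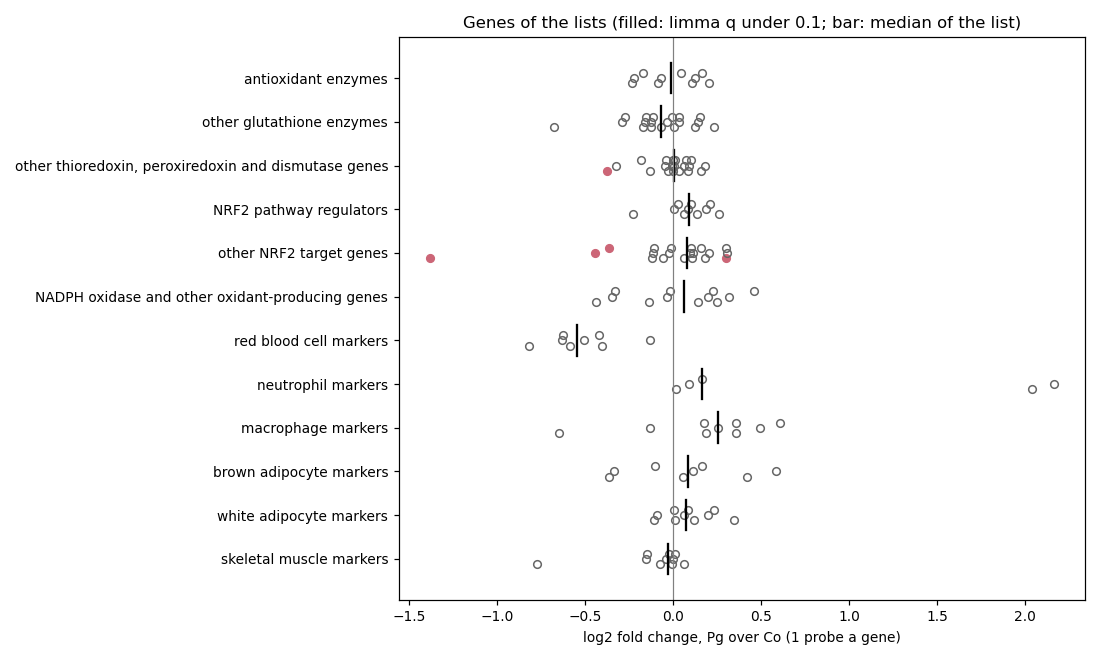
Log2 fold change, Pg over Co, of the tested genes of 12 lists, 1 point per gene, with the list median as a bar; filled points have a limma q under 0.1. The filled points are *Txnip* and 4 NRF2 target genes, and none is an antioxidant enzyme of the first list.

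Of 12 NADPH oxidase and other oxidant-producing genes, 6 were higher and 6 lower with none called (median 0.06). They ran from *Duox1*, a hydrogen peroxide-making oxidase (-0.44, limma q = 0.582), to *Ncf4*, a subunit of the phagocyte oxidase (0.46, limma q = 0.577). *Duox1* was at -0.04 without Co replicate 4, and *Ncf4* at 0.16 without Pg replicate 2 and 0.84 without Pg replicate 3. The Pg values of *Ncf4* spanned 5.92 to 7.95 and enclosed the Co range.

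The members did not order the mice the same way. Co replicate 4 gave the highest value for 3 member probes and the lowest for 4, and Pg replicate 1 the highest for 3 and the lowest for 1. *Gclc*, *Srxn1* and both *Txnrd1* probes had their lowest value on Co replicate 4. The SD was larger in Pg than in Co mice for 7 of 12 probes, beside 53.8% of all probes tested.

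**Figure D4:**
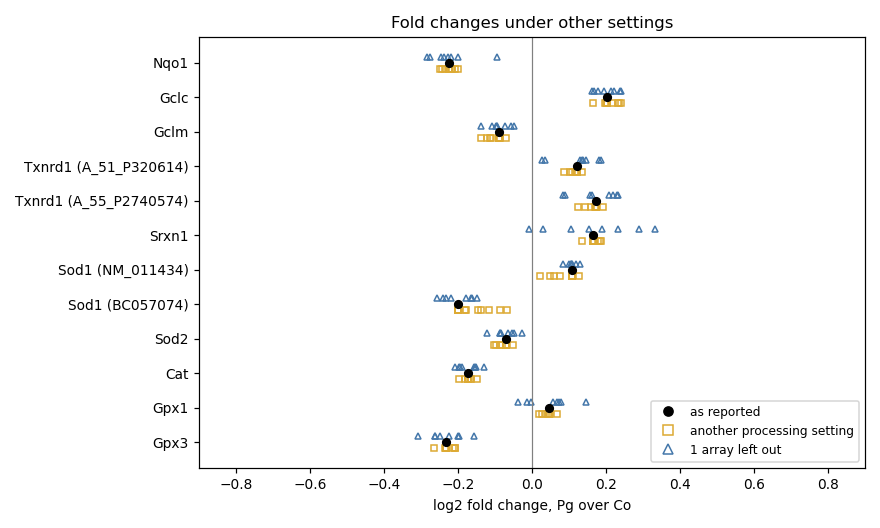
Log2 fold change, Pg over Co, of each antioxidant enzyme probe as reported (black point), under other processing settings (yellow squares) and with 1 array left out (blue triangles). The values of *Gpx1* and *Srxn1* cross 0 when 1 array is left out, and those of the other probes stay on one side.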

How the data were processed

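RNA of 8 mice (4 Co, 4 Pg) was hybridized to Agilent one-color arrays on 1 slide, with Co on one row and Pg on the other, so position and group cannot be told apart. The authors deposited the Feature Extraction 11.0.1.1 output of each array, holding spot intensity (processed, mean and median) without normalization between arrays. They also deposited quantile-normalized log2 values made with limma, with 1 entry for each of 28067 accessions, used here as an alternative. The fold changes, p-values and other statistics deposited there were not used.

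From the processed intensity, population outlier spots (90 to 150 of 59305 per array) were left out, spots were averaged per probe (56605 probes), and values were quantile-normalized, raised to at least 1 and log2-transformed with limma 3.58.1 in R 4.3.3 (files read with data.table, version 1.17.8). The 33819 probes that passed the scanner's background flag on 4 or more arrays entered lmFit and eBayes, two-sided, with Benjamini-Hochberg q over all of them. A call was a q under 0.1, and a DEG also a fold change above 1.5. The script was tested on simulated data. List genes were named through the accession of the probe where it matched (32994 probes), otherwise by the array's name. Named were all members with every probe, and of each list the genes called and those with the largest and smallest fitted log2 fold change, plus marker genes not above background on any array. One gene that this rule names is not reported here. The members and lists were chosen with earlier results of these data known. The number of arrays limits the precision. Each mouse is a replicate.

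Alternatives were normexp (offset 50), median signal, 75th percentile scaling over all probes or, added after seeing the data, over the tested probes, no normalization, 16 added before log2, other filters, outlier spots kept, the deposited log2 values, a replicate block, 1 value per gene, a q under 0.05, and each array left out. Same-numbered arrays did not deviate together (r = 0.06, -0.03, -0.07 and 0.18 for replicates 1 to 4), so the numbers were not taken to pair the mice.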

Additional observations from a re-analysis of the deposited data

Results flagged for a closer look

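A gap test for 1 value apart from the rest of its group of 4 was run on 74 groups and marked 6, where chance marks about 1 in 20. *Sod2* read 13.1922 on Pg replicate 2 against 13.36 to 13.37 on the other Pg arrays. *Gpx3* read 11.8202 on Pg replicate 3 against 12.10 to 12.13. Among the list genes, *Hemgn* read 14.4448 (the others 14.52 to 14.53) and *Camp* 6.6811 (6.87 to 6.89) on Co replicate 3. On Co replicate 4, *Ppargc1a*, a coactivator of mitochondrial genes, read 11.7615 (12.65 to 12.68) and *Myh2*, a fast muscle myosin, 18.3095 (18.53 to 18.57).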

How the results depend on the processing

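The count of antioxidant enzyme probes called was 0 under each setting and each left-out array except normexp, where it was 1 (*Gclc*), and the DEG count stayed 0. Over 131 probe values under other settings, 130 kept their direction and side of the threshold, and 92 of 96 with 1 array left out. The 4 that turned were *Gpx1* without Co replicate 1 (-0.0151), Pg replicate 2 (-0.0389) or Pg replicate 4 (-0.0033) and *Srxn1* without Co replicate 4 (-0.009), at highest 0.1443 and 0.3318 with 1 array left out. The median over the members was -0.098 in the deposited values, which hold 1 entry for both *Txnrd1* probes. With the replicate block no probe of the array was called, the lowest member q was 0.18 (*Cat*), and the count of list genes called was 0. That count was 5 as reported, 11 with normexp, 10 with the median signal, 1 without normalization, 2 without the filter, and 0 (without Co replicate 3) to 10 (without Pg replicate 3) with 1 array left out. The share of all probes called was 0.00887% without Co replicate 3. Of the calls over all probes, 23.3% were higher in Pg mice, against 69% without normalization (20 higher, 9 lower) and 44.2% with the 75th percentile over the tested probes. Directions that turned among list genes were *Camp* (normexp -0.0051, median signal -0.0194, deposited values -0.0216, and with 1 array left out -0.0364, -0.0271 and -0.0179, to at most 0.0654), *Myh2* (-0.1042 and -0.0724 with 75th percentile scaling, -0.0541 without normalization, and with 1 array left out -9e-04, without Co replicate 4, to 0.0866), *Gss* (-0.5383 in the deposited values, where its probes share 1 entry) and *Myh4* (with 1 array left out 0.4211, without Pg replicate 1, to -1.557). The cause was not tested. Differences below the intervals given could not be resolved with 4 arrays per group.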

Other observations

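In the further marker lists no gene was called on the probe that stood for it, the tested probe with the highest mean. Of 9 macrophage markers tested, 7 were higher in Pg mice (median 0.25), the highest being *Lyz2*, lysozyme (0.60, limma q = 0.464), at 0.34 without Pg replicate 2 and 0.97 without Pg replicate 3. The other *Lyz2* probe differed by 0.19 (limma q = 0.853). Of 8 brown adipocyte markers tested, 5 were higher (median 0.08). *Dio2*, which activates thyroid hormone, differed by 0.59 (limma q = 0.129) and *Ppargc1a* by -0.36 (limma q = 0.431), or -0.59 without Co replicate 4. Of 10 white adipocyte markers, 8 were higher (median 0.07), from *Lpl*, lipoprotein lipase (-0.11, limma q = 0.463), to *Plin1*, the lipid droplet coat protein (0.35, limma q = 0.641). *Plin1* was at 0.00 without Pg replicate 1. The other 5 *Lpl* probes disagreed: A_52_P257812 and A_66_P123790 were called lower (-0.32, limma q = 0.0683, and -0.34, limma q = 0.0628), and the remaining 3 differed by 0.33 to 0.46 without a call. The other *Plin1* probe differed by -0.32 (limma q = 0.748). Of 10 skeletal muscle markers, 2 were higher (median -0.03). *Myh4*, the fastest myosin, differed by -0.77 (limma q = 0.772) and ranged from 13.38 to 16.97 in Co and from 11.38 to 17.07 in Pg mice. The other *Myh4* probes differed by 0.02 and -0.16 without a call. *Myh2* differed by 0.06 (limma q = 0.646), its other probes by -0.20 and -0.40 without a call.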
